A study of Mus musculus with 3 samples.

Results

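The 39 genes described here are known imprinted genes of the mouse, listed by name, in the open chromatin of long-term hematopoietic stem cells (HSCs). They were 39 of 21738 annotated genes measured in the same way and fall into 18 domains. The set was selected on measured values, namely the transposase fragments within 1 kb of the start and over the gene body, and by the share of cells with 2 fragments over 1 promoter site, so these values are a description and carry no test. The working name of the set put *Peg3* in the lead, and the counts went against it: *Peg3* was 8th of the 39 by promoter fragments, and its domain was 10th of the 18.

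The cells came from 1 preparation of bone marrow HSCs of 8-week-old wild-type C57BL6/J mice, which the record describes as female. They were sorted as LSK CD150+CD48−CD34− cells after enrichment for c-Kit, and profiled by DOGMA-seq, a droplet assay that reads open chromatin (ATAC), RNA and antibody tags from the same cells. How many mice gave the marrow, and whether it was pooled, is unknown here. There is 1 ATAC library, with no second condition and no replicate, so the error given is that of counting alone, as exact 95% Poisson intervals for counts and ratios and exact binomial ones for shares.

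In an imprinted gene, 1 of the 2 parental copies is silent or less active, for some genes only in certain tissues. Which copy is silent is in most cases set by DNA methylation laid down in the egg or the sperm. The regions that carry this mark from the germline are called germline differentially methylated regions (germline DMRs), and some lie at the promoter of a gene of the domain. *Peg3* encodes a zinc finger protein made from the paternal copy. A set of imprinted genes has been tied to stem cell quiescence and growth control.

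The library gave 3757 called cells, of which the 3108 with over 3000 fragments in peaks were used. The lowest cell kept had 3003 such fragments and the highest one left out had 2990. The kept cells held 37137164 fragments on chromosomes 1 to 19 and X, with a median of 11457 per cell. The 9 HSC markers had 52 to 1846 promoter fragments, led by *Hlf* and *Mecom*, with *Ly6a* at 52 and *Slamf1*, which encodes CD150, at 132. The 9 markers of B cells, T cells and neutrophils had 2 to 71. The 3 megakaryocyte markers had 729 to 1178, the 3 erythroid markers 39 to 566 and the 3 endothelial markers 51 to 438, and the part of other cells in the values below was not tested.

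The sequence around the most covered base of *Peg3* is shown because it does not lie at the annotated start. The gene spans chr7:6703892-6730431 on the minus strand of GRCm38 (mm10), and its principal transcript starts at 6730421. The most covered base, 6729601, was 820 bp into the gene, in intron 1. Shown here in genome orientation (plus strand) are the 300 bases around it, chr7:6729451-6729750. Capitals mark 3 kinds of short match on either strand: TGCCGC or its reverse complement, the core recognised by the imprint protector ZFP57 when methylated; AAGATGGC, a core bound by YY1; and CCAAT, the core of NF-Y sites. These letters were chosen after the sites had been seen.
Peg3 intron site: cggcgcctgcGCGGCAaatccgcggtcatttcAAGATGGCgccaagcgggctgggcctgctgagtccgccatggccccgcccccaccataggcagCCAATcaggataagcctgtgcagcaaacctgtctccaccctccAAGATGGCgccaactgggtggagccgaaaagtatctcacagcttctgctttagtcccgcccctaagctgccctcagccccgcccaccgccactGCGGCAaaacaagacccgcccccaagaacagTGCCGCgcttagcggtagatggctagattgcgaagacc

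This window held 3 matches to the ZFP57 core, 2 to the YY1 core and 1 CCAAT, and the matches did not overlap. Among 10383 autosomal protein-coding promoters with fragments in at least 300 cells, taken as 300 bases around the most covered base, 27.5% held the ZFP57 core, 6.29% the YY1 core and 37.5% a CCAAT. At least 3 ZFP57 cores stood in 89 of these windows (0.857%), and at least 2 YY1 cores in 16 (0.154%). Over the whole open stretch of *Peg3*, from 400 to 3200 bp into the gene, AAGATGGC occurred 11 times, every time on the plus strand, opposite to the direction in which *Peg3* is transcribed. In the stretch at the same distances from the starts of the 10383 other genes, 16.4% held a match and no gene had more than 7. The ZFP57 core occurred 5 times in the *Peg3* stretch, a number reached in 54 of the 10383 others. The limits of the stretch were set after the profile had been seen. A match of letters is a description and says nothing of what was bound.

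The 250 bases before the RefSeq start of *Kcnq1ot1* (chr7:143296548-143296797, minus strand) are shown as the germline DMR promoter with the most fragments when principal starts are compared, and those before 2 neighbouring starts of *Gnas* because their fragment pairs are set side by side further on. The *Gnas* stretches are chr2:174327518-174327767, before the upstream start at the alternative exon known as 1A, and chr2:174329756-174330005, before a start further downstream, the usual start of the G protein subunit Gs-alpha (both plus strand). All 3 are RefSeq sequences of GRCm38.p6, in which 30 of the 39 genes had an entry, and the capitals mean the same as above.
Kcnq1ot1 promoter: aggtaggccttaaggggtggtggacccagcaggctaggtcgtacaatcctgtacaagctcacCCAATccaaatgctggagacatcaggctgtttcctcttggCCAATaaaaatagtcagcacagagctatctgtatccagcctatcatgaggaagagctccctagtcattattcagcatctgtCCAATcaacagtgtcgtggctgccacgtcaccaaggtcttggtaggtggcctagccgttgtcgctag
Gnas exon 1A promoter: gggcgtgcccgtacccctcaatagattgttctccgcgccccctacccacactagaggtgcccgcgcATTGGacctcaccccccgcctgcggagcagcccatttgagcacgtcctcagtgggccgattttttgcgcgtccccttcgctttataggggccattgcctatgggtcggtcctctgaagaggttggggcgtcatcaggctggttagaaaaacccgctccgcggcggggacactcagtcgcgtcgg
Gnas Gs-alpha promoter: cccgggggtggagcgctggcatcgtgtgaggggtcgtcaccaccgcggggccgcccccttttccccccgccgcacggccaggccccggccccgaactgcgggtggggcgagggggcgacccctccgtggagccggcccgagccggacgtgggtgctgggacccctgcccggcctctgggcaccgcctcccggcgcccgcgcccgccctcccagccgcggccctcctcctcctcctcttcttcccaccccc

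The *Kcnq1ot1* stretch held 3 CCAAT matches and neither of the other cores, with 5 CpG dinucleotides and 51.2% GC. The *Gnas* exon 1A stretch had 22 CpG dinucleotides, 63.2% GC and 1 CCAAT match. The Gs-alpha stretch had 29 CpG dinucleotides, 80% GC and no match. Of the 7 distinct germline DMR sites with at least 300 cells, 5 held a CCAAT, 2 the ZFP57 core and 1, that of *Peg3*, the YY1 core. Of the 10 other members with at least 300 cells, 2, 2 and 1 did. Over the 10383 autosomal promoters the shares were 37.5%, 27.5% and 6.29%, so the ZFP57 core was about as frequent there as at the germline DMR sites (28.6%).

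Across the 39 genes, promoter fragments ranged from 1 to 2865, with a median of 271, against 358 over the 20717 autosomal protein-coding genes not listed as imprinted. Each promoter was also set against the median of the 200 such promoters nearest in GC content and CpG density. Over 2-fold of the matched median were 4 of 39, when 23.7% of all autosomal promoters were. Under 0.5-fold were 21 of 39, when 26.0% of all were, and 14 lay between. The median of the 39 was 0.462-fold, that of the 13 germline DMR promoters 0.483-fold and that of the 26 others 0.455-fold. Fewer cells with an open site and fewer fragments from each cell cannot be told apart in these sums.

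At principal starts, the 3 highest counts were at genes not listed with a germline DMR at their own start. *Copg2*, a coatomer subunit gene that overlaps the 3′ end of *Mest*, had 2865 fragments (2761 to 2972), 2.46-fold of its matched median. *Ube3a*, a ubiquitin ligase gene silenced on the paternal copy in neurons, had 2069 fragments, 1.04-fold. *Trappc9*, a trafficking complex gene that holds *Peg13* in an intron, had 2054 fragments, 4.30-fold. Lower in the order, *Commd1* had 1140 fragments, 1.5-fold, and *H13*, which encodes a signal peptide peptidase, had 1080, 0.962-fold. *Gnas* had 1235 fragments at its upstream start, 0.685-fold.

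At principal starts, the highest germline DMR promoter, and 4th of the 39, was *Kcnq1ot1*, the long antisense RNA that silences its neighbours, with 1415 fragments (1342 to 1491), 1.65-fold of its matched median. *Peg3* followed with 950 fragments (891 to 1012) in 752 of the 3108 cells, 0.742-fold and above 70.1% of autosomal promoters. *Zrsr1*, a splicing-factor retrogene, had 820 fragments, 0.772-fold, and *Peg13*, a noncoding RNA, had 804, 0.718-fold. The most covered base of *Zrsr1* lay 915 bp past its start, near the edge of the window. *Peg10*, derived from a retrotransposon, had 790 fragments and *Sgce*, the sarcoglycan gene it faces head to head, had 758, 0.451-fold and 0.483-fold. These 2 windows share their most covered base, so they are not separate sites. *Usp29*, which starts next to *Peg3* on the other strand, had 635 fragments, 0.676-fold, and its window reaches the same intron site of *Peg3*. *Impact*, a regulator of translation, had 610 fragments, 53.0-fold, against a matched median of only 11.5 for a start poor in CpG. The remaining 5 were lower: *Mest*, an enzyme gene, had 425, *Plagl1*, a zinc finger gene, 271, *Nnat* 95, *Snrpn* 61 and *Mcts2* 57, from 0.305-fold down to 0.0500-fold. *Zrsr1* and *Mcts2* are retrocopies of X-linked genes, and fragments that map equally well to the parent gene may be missing from their counts.

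*Grb10*, an adaptor that restrains insulin signaling, had 787 fragments, 0.359-fold. *Igf2r*, the receptor that clears IGF2, had 578, 0.449-fold. *Phlda2* had 512, 0.393-fold, and *Sfmbt2*, a Polycomb gene, 354, 0.302-fold. *Igf2* itself had 150 fragments at its principal start, 0.655-fold, and *H19*, the noncoding RNA beside it, had 151, 0.531-fold. In the domain of *Dlk1*, a Notch-like ligand, *Dlk1* had 267 fragments, 0.354-fold, *Meg3* 122, 0.207-fold, *Rtl1* 16, 0.889-fold, *Mirg* 7, 0.203-fold, and *Rian* 3, 0.462-fold. In the *Kcnq1* domain, *Slc22a18*, a transporter gene, had 239 fragments, 13.3-fold of a matched median of 18, while the channel gene *Kcnq1* had 220, 0.371-fold, and *Ascl2* 205, 0.259-fold. In the *Snrpn* domain, *Mkrn3* had 170 fragments, *Magel2* 112 and *Ndn* 3, and *Snrpn* itself, with 61, was far below *Ube3a* of the same domain. *Kcnk9*, a potassium channel gene, had 84, *Zim1*, in the domain of *Peg3*, 48, and *Zdbf2* 1.

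**Figure D1:**
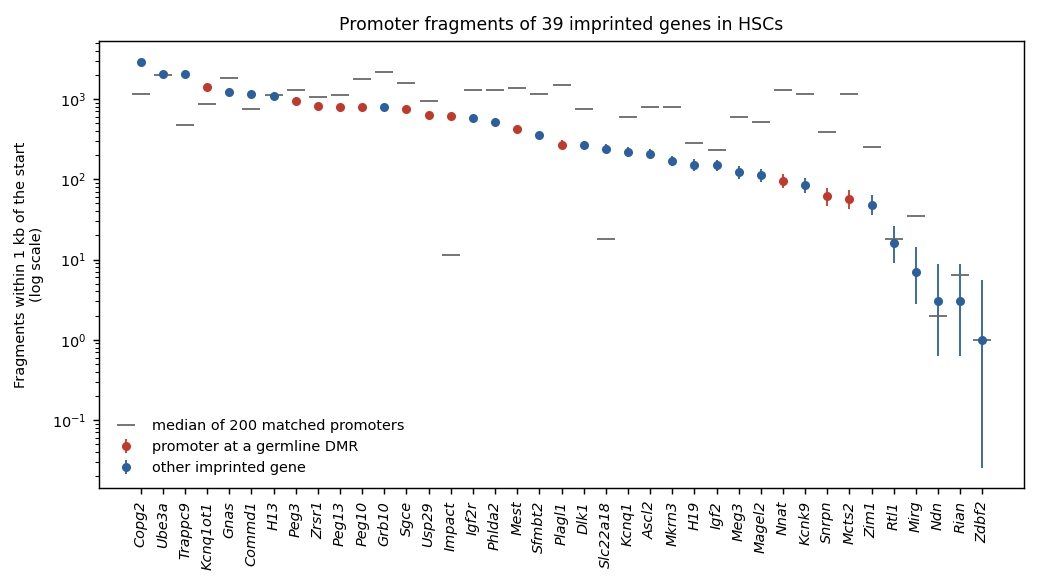
Fragments within 1 kb of the start (log axis) for the 39 genes, ordered by count, with exact 95% Poisson bars; red points are promoters at a germline DMR, blue points the other imprinted genes, and dashes the median of the 200 matched promoters. Most points lie under their dash, 21 of them by more than 2-fold, while *Copg2*, *Trappc9*, *Impact* and *Slc22a18* lie more than 2-fold above.

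By domain, the mean over its members at their principal starts was highest for *Mest*-*Copg2* (1645 fragments), *Gnas* (1235), *Peg13*-*Trappc9* (981) and *Zrsr1*-*Commd1* (980), and lowest for *Nnat* (95), *Dlk1*-*Meg3* (83) and *Zdbf2* (1). Both ends of this order depend on the start, since a later start of *Impact* had 3717 fragments, against 610 at the principal one, and another start of *Zdbf2* 439, against 1. The domain of *Peg3* had a mean of 544, drawn down by *Zim1*. The domain *Snrpn*-*Ube3a* had a mean of 483, of which *Ube3a* alone gave 2069 of 2415 fragments. With a window of 500 bp on each side in place of 1 kb, *Peg3* dropped to 23rd of the 39, since that window ends before the intron site.

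Over the gene body plus 2 kb upstream, as fragments per kb, 8 of 39 genes were over 2-fold of the 200 genes nearest in length and GC content, when 24.6% of all autosomal genes were, and 11 were under 0.5-fold, when 28.6% of all were. The median of the 39 was 0.953-fold. The 3 highest were short genes, *Mcts2* (12.9-fold), *Ndn* (11.6-fold) and *Zrsr1* (8.44-fold), followed by *Impact* (4.23-fold), *Peg10* (3.38-fold), *Gnas* (2.89-fold), *Copg2* (2.18-fold) and *Ube3a* (2.08-fold). *Mcts2* and *Zrsr1* lie inside *H13* and *Commd1*. The 11 low bodies were *Zim1* (0.0717-fold), *Mirg*, *Rtl1*, *Snrpn*, *Magel2*, *Rian*, *Kcnk9*, *Dlk1*, *H19*, *Meg3* and *Ascl2* (0.462-fold). *Peg3* had 2173 fragments over its body, 76.1 per kb and 1.75-fold.

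Around the start of *Peg3* itself there was little open chromatin. The first 100 bp of the gene had 34 overlapping fragments, whereas the 100 bp from 800 to 900 bp into the gene had 568, and a second rise from 1600 to 1700 bp had 330. The signal fell to 27 fragments per 100 bp at 3000 bp and to 3 at 3200 bp. *Peg10* also had an open site inside the gene, with 673 fragments from 1900 to 2000 bp past the start against 410 in the highest 100 bp before it. *Kcnq1ot1*, by contrast, had its highest count, 726, in the 100 bp just before the start. *Gnas* had 684 fragments in the 100 bp before its upstream start, and a second, broad rise peaked at 533 fragments from 1900 to 2000 bp past it. The covered stretch at the *Peg3* site was at least 285 bp wide at 0.5 of its height. It ran up to the edge of the window, so its width cannot be compared with that of other promoters. Of the fragments in the window, 64.9% were too short to span a nucleosome. The median over the autosomal promoters with at least 300 cells was 53.6%.

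**Figure D2:**
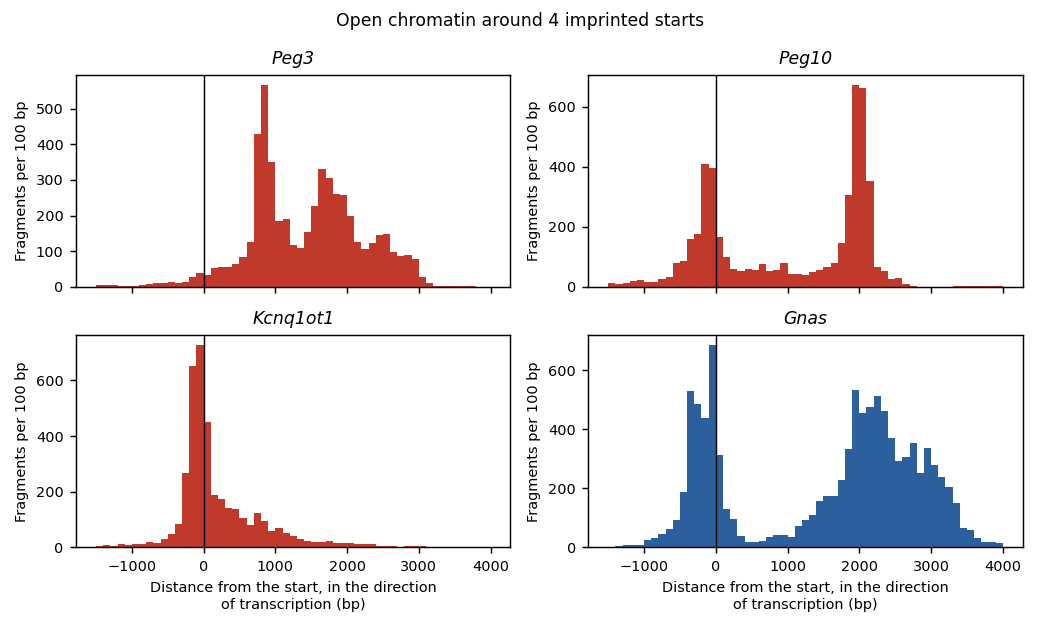
Number of fragments overlapping each 100 bp bin from 1500 bp upstream to 4000 bp downstream of the start (vertical line) of *Peg3*, *Peg10*, *Kcnq1ot1* and *Gnas*, in the direction of transcription; each panel has its own vertical scale. *Peg3* has 34 fragments in the bin at the start and 568 in the highest bin, 800 to 900 bp into the gene, whereas *Kcnq1ot1* has its highest bin, 726, just before the start.

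Whether 1 copy or both were open can be asked of single cells. If each base of 1 DNA copy gives at most 1 fragment, 2 fragments of a cell over the same base come from 2 copies. Pairs that share an end, described further on, may not meet this condition. In a cycling cell that has copied its DNA, the 2 copies can also come from the same parental chromosome. The paper identified clusters of cycling HSCs, and no cell was left out for cycling here. What such cells add to the pairs was not tested. For each promoter, the cells with a fragment over the most covered base were counted, and among them those with 2 fragments overlapping by at least 20 bp. The share was set against that in the 200 autosomal promoters nearest in the number of covered cells. X-linked genes, of which 1 copy is silent in each female cell, served as a gauge. Only 5419 of 38470179 fragments in called cells fell on the Y chromosome.

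At *Peg3*, 281 cells covered the base and 8 of them held 2 fragments (2.85%, interval 1.24 to 5.53%), 0.518 of the share in matched promoters (0.224 to 1.02). Over the 7 distinct germline DMR sites with at least 100 covered cells, 65 of 1704 cells had 2 fragments when 92.3 were expected, a ratio of 0.704 (0.543 to 0.898). The other members, with 9 sites, had 214 of 3209 cells, a ratio of 0.908 (0.791 to 1.04). The 227 X-linked promoters had a ratio of 0.671 (0.642 to 0.701). Against an expectation from 2 equal independent copies, in place of matched promoters, these ratios rose to 1.35, 1.43 and 1.25, and that of *Peg3* was 0.999. The intervals of the 3 classes against matched promoters are descriptions, and that of the germline DMR promoters overlapped both others.

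Among the 18 genes with at least 100 covered cells, this share ranged from 0.714% at *Grb10* (1 of 140 cells) to 10.3% at *Copg2* (69 of 672 cells). Since the share rises with the number of covered cells, the ratio to matched promoters is given for each site. Of the 7 germline DMR sites, 4 had ratios from 0.145 to 0.595: the site shared by *Peg10* and *Sgce* (2 of 259 cells, 0.145), that of *Peg3* and *Usp29* (0.518), *Peg13* (0.542) and *Zrsr1* (0.595). The other 3 were near or above 1: *Impact* had 0.965, *Kcnq1ot1* 1.02 and *Mest* 1.23, from 9, 30 and 4 cells. Among the other members, *Grb10* had 0.190, *Sfmbt2* 0.276, *Gnas* 0.407, *Commd1* 0.615 and *Igf2r* 0.890, while *Copg2*, *Trappc9*, *H13* and *Ube3a* had 1.02 to 1.23. *Grb10* and *Sfmbt2* rest on 1 cell each.

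After these values had been seen, the pairs were split by their ends. Pairs that share an end, which the same Tn5 cut could give, were not fewer at X-linked promoters than at matched autosomal ones: 1513 cells against 1401 expected, a ratio of 1.08 (1.03 to 1.14). Pairs with separate ends were fewer: 541 cells against 1708 expected, 0.317 (0.291 to 0.345). At the germline DMR sites the split was alike, with 47 cells with a shared end (ratio 1.06, 0.782 to 1.42) and 18 with separate ends (0.354, 0.210 to 0.560). The other members had 0.919 (0.738 to 1.13) for shared ends and 0.894 (0.748 to 1.06) for separate ends. What makes the pairs that share an end was not tested.

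Counting pairs with separate ends anywhere within 1 kb of the start gave larger numbers. The 8 germline DMR sites with at least 100 cells then had 50 such cells of 4780, when 176 were expected, a ratio of 0.284 (0.211 to 0.374). The 19 sites of other members had 526 of 10311, a ratio of 0.913 (0.837 to 0.995), and 374 X-linked promoters had 0.333 (0.320 to 0.347). The 4 X-linked genes known to escape silencing, *Kdm6a*, *Kdm5c*, *Eif2s3x* and *Ddx3x*, together had 0.779 (0.708 to 0.855). These ratios use the kind of pair by which the genes were chosen, and the difference between the classes was not tested.

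**Figure D3:**
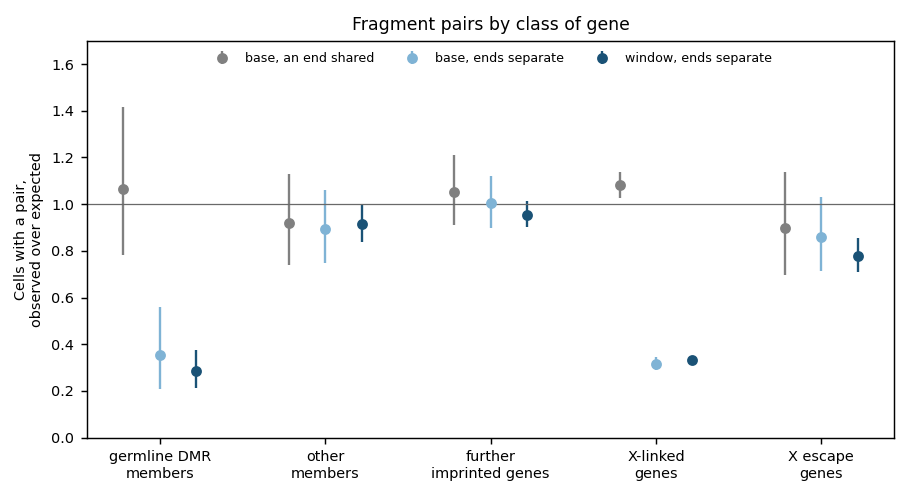
Cells with a pair of overlapping fragments, observed over expected from matched autosomal promoters, by class of gene; gray points are pairs over the most covered base that share an end, light blue points those with separate ends, and dark blue points pairs with separate ends anywhere within 1 kb of the start, with exact 95% Poisson bars. Shared-end pairs lie between 0.897 and 1.08, whereas separate-end pairs are at 0.284 for germline DMR members and 0.333 for X-linked genes in the wider window.

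*Peg3* had 5 cells with a separate-end pair of 752 (0.665%, interval 0.216 to 1.54%), when 30.02 were expected, a ratio of 0.167 (0.0541 to 0.389). A window centered 2000 bp into the gene had 7 of 793 cells, a ratio of 0.212 (0.0854 to 0.438), but its most covered base lay at its edge, on the flank of the first peak, so these are not the fragments of the second rise alone. *Usp29* had 4 of 542, a ratio of 0.258, from largely the same fragments. None of the 200 promoters nearest to *Peg3* in covered cells and CpG density had a lower separate-end ratio than *Peg3*, and 7 had a lower 2-fragment ratio. The 5 of these with the lowest 2-fragment ratio were *Rmdn1* (0.253), *Ccdc142* and *Gm42688*, which share a promoter window (0.389), *Tspyl4* (0.40) and *Xrcc2* (0.401). Their separate-end ratios were 0.791, 0.843, 0.843, 1.02 and 0.596.

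The other germline DMR members with at least 300 cells had ratios from 0.142 to 0.440. *Peg10* had 3 of 636 cells, a ratio of 0.142 (0.0292 to 0.416), and *Sgce* 3 of 613, 0.150. The open site inside *Peg10*, 2000 bp past the start, had 6 of 929 cells and a ratio of 0.128 (0.0469 to 0.278). *Peg13* had 3 of 618, 0.149 (0.0306 to 0.434), and *Zrsr1* 4 of 646, 0.184 (0.0501 to 0.471). *Mest* had 2 of 352, 0.308, with an interval of 0.0373 to 1.11 that reached 1, and its most covered base lay at -951 bp from the start, near the edge of the window. *Impact* had 4 of 499, 0.324 (0.0882 to 0.829). *Kcnq1ot1* had 27 of 1041 cells, 0.440 (0.290 to 0.640), the highest ratio of the germline DMR members with at least 300 cells. *Plagl1*, with 236 cells, had 2 against 2.81 expected, a ratio of 0.712 (0.0862 to 2.57), too few to place. *Nnat*, *Snrpn* and *Mcts2* had under 100 cells each. Among the other members of the *Snrpn* domain, *Mkrn3* had a pair in 0 of 160 cells and *Magel2* in 0 of 100. Only 1.48 and 0.530 such cells were expected, too few to place either gene. The share that a count of 0 allows, taken as 3 counts of the total and not as an exact interval, is up to 1.88% and 3%.

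In 2 members outside that group the share was also low. *Gnas* had 13 of 963 cells at its upstream start, when 49.8 were expected, a ratio of 0.261 (0.139 to 0.446). *Grb10* had 7 of 626, 0.335 (0.135 to 0.689), and a second start of this gene had 4 of 450, 0.382 (0.104 to 0.978). Both loci are known to hold a germline DMR, although these starts were not listed as such. They are counted with the other members in the sums above. Their ratios therefore do not show low shares away from loci with a germline DMR. The remaining 8 members with at least 300 cells had ratios from 0.622 to 1.06. They were *Copg2* (186 of 1740 cells, 0.995), *Ube3a* (107 of 1334, 1.06), *Trappc9* (101 of 1326, 1.02), *Commd1* (42 of 878, 1.01), *H13* (38 of 847, 0.998), *Sfmbt2* (5 of 311, 0.980), *Phlda2* (7 of 397, 0.820) and *Igf2r* (7 of 457, 0.622). The intervals of the last 3 reached from 0.250 to 2.29, so they could not be placed.

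Of the 19 members with at least 300 cells, 11 had a separate-end ratio under 0.5: the 9 germline DMR members with that many cells, *Grb10* and *Gnas*. Among all autosomal promoters with at least 300 cells 2.49% did, and among all such X-linked ones 79.0%. Neither set was matched to the members in number of cells. The median ratio was 0.997 over the 10383 autosomal promoters, with 5% of them under 0.605, and 0.347 over the 229 X-linked ones. The limit of 300 cells was set after the values had been seen; *Sfmbt2*, with 311 cells, was the member just inside it and *Plagl1*, with 236, the one just outside. The 11 are not 11 separate sites, since *Peg3* and *Usp29*, and *Peg10* and *Sgce*, share theirs.

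**Figure D4:**
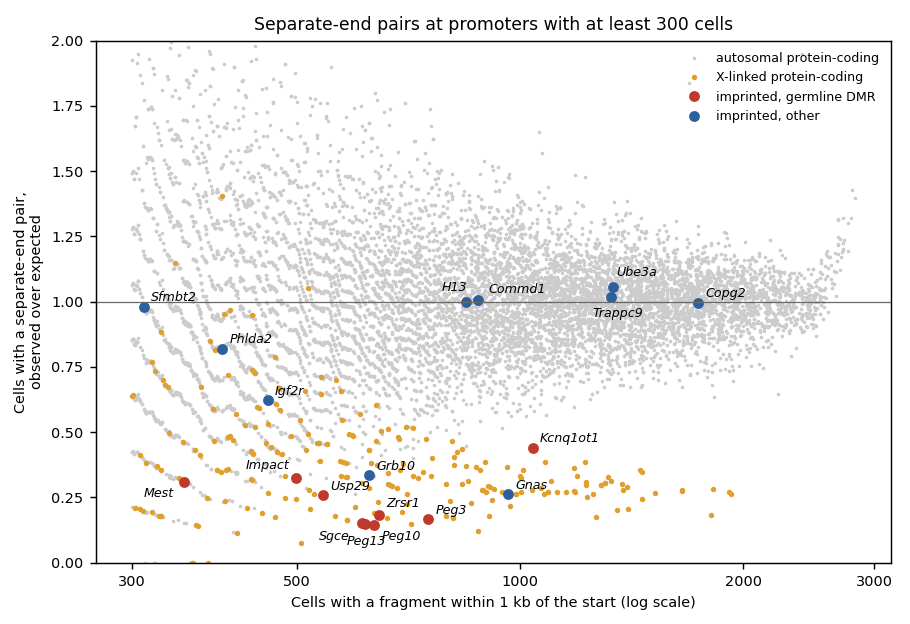
Cells with a separate-end pair within 1 kb of the start, observed over expected, against the number of cells with a fragment there (log axis), for promoters with at least 300 cells; gray points are autosomal, orange points X-linked protein-coding genes, red and blue points the 19 imprinted genes named beside them, and 29 autosomal points above 2 are not drawn. *Copg2*, *Ube3a*, *Trappc9*, *Commd1* and *H13* lie near 1, whereas *Peg3* and the other germline DMR members lie between 0.142 and 0.440 among the X-linked points.

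Ratios at neighbouring starts of a domain are given side by side, with no test. *Commd1* had a ratio of 1.01 (0.725 to 1.36) at its principal start and 0.995 (0.717 to 1.35) at the annotated start at 22982184 close to it, and its annotated start inside *Zrsr1* had 0.173 (0.0561 to 0.403) from 5 of 737 cells. *Trappc9* had 1.02 (0.829 to 1.24), and *Peg13*, which lies within it, 0.148 (0.0306 to 0.434). *Copg2* had 0.995 (0.857 to 1.15) against 0.308 for *Mest*. At *Gnas*, a start at 174328023, downstream of the principal one at 174327768, had 13 of 1005 cells and a ratio of 0.234 (0.125 to 0.401), while the start at 174330097, 2074 bp downstream, had 82 of 1371 cells, 0.767 (0.610 to 0.952), and a start near the 3′ end of the gene had 36 of 805, 1.06 (0.742 to 1.47). The first 2 of these windows adjoin each other without overlap.

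Among the annotated starts of the members, a later start of *Impact* had the most fragments. That start, at 12974298 on chromosome 18, had 3717 fragments in 2061 cells, against 610 at the principal start. Of these cells 48 (2.33%) had a separate-end pair, when 279 were expected, a ratio of 0.172 (0.127 to 0.228). That interval was the narrowest in absolute width among the starts read here, but not relative to its ratio. The start at 12972272 had 9 of 859 cells, 0.228 (0.104 to 0.433). The share of cells with a pair was higher there than the 0.665% at *Peg3*, and the ratio to matched promoters was similar, since more pairs are expected where more cells have a fragment.

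**Figure D5:**
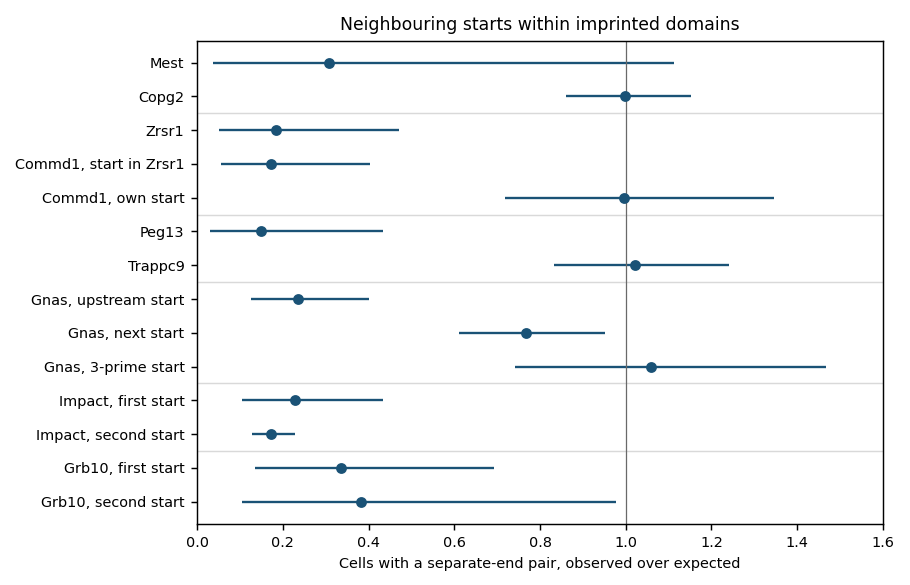
Cells with a separate-end pair, observed over expected (horizontal axis), at neighbouring annotated starts of 6 imprinted domains, with exact 95% Poisson bars; gray lines part the domains, and the *Impact* starts are those at 12972272 and 12974298. *Zrsr1*, *Peg13* and the *Gnas* start at 174328023 lie at 0.148 to 0.234, and the *Commd1* start at 22982184 and the *Trappc9* start at 0.995 and 1.02.

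The ratios were also read by depth and without cells that look like doublets. In 3 equal groups of 1036 cells by fragment number, the germline DMR ratio was 0.147 (0.0401 to 0.377) in the shallowest, 0.222 (0.111 to 0.397) in the middle and 0.367 (0.253 to 0.515) in the deepest group, and the X-linked ratio was 0.201, 0.235 and 0.407. The sites with at least 100 cells differed between these groups, with 6, 7 and 7 germline DMR sites and 153, 209 and 261 X-linked ones, so depth and the set of sites cannot be told apart. Fragments of *Peg3* were found in 17.5%, 24.4% and 30.7% of the cells of these groups. Without the 200 cells (6.44%) marked by many sites covered by more than 2 fragments, the germline DMR ratio was 0.190 (0.123 to 0.280), the X-linked ratio 0.227 (0.214 to 0.240) and that of the other members 0.917 (0.830 to 1.01). *Peg3* then had 3 of 675 cells, 0.138 (0.0284 to 0.403), *Kcnq1ot1* 13 of 940, 0.278, and *Gnas* 5 of 875, 0.129. *Impact* had 0 of 442, which by the same 3 counts allows a share of up to 0.679%. The 11 members under 0.5 lay between 0 and 0.411 without these cells, and the other 8 between 0.480 and 1.12.

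Of 34 further imprinted genes, 6 promoters were over 2-fold of their matched median and 14 under 0.5-fold, when 23.7% and 26.0% of all autosomal promoters were, with a median of 0.840-fold. The 6 were *Herc3* (13.3-fold, from 93 fragments), *Tssc4* (7.87-fold), *Dhcr7* (3.85-fold), *Inpp5f* (2.95-fold), *Nap1l4* (2.26-fold) and *Ago2* (2.12-fold). The 14 were *Th* (0.480-fold), *Slc22a3*, *Peg12*, *Airn*, *Nespas*, *Calcr*, *Klf14*, *Slc22a2*, *Dio3*, *Cobl*, *Slc38a4*, *Nap1l5*, *Zim3* and *Zfp264* (0.0104-fold). Of the 14 with at least 300 cells, 3 had a separate-end ratio under 0.5. Of all autosomal promoters with at least 300 cells, 2.49% did. *Cdkn1c*, the cell cycle inhibitor p57 in the domain silenced by *Kcnq1ot1*, had 31 of 1097 cells, a ratio of 0.462 (0.314 to 0.655), while its neighbours *Nap1l4* and *Tssc4* had 0.938 and 1.10. *Peg12* had 2 of 467 cells, 0.175 (0.0212 to 0.631), and *Asb4* 1 of 346, 0.163 (0.00412 to 0.907). Over the 20 sites with at least 100 cells the ratio was 0.956 (0.902 to 1.01).

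Of 8 genes that protect or copy imprints, 2 promoters were over 2-fold and 2 under 0.5-fold of their matched median, when 23.7% and 26.0% of all autosomal promoters were, and the median was 0.924-fold. *Ctcf* had 3739 promoter fragments (1.76-fold), *Dnmt1*, the maintenance methyltransferase, 2824 (5.57-fold), *Trim28*, the corepressor that ZFP57 recruits, 2059 (1.13-fold), and *Uhrf1*, which guides DNMT1, 1807 (2.02-fold). *Zfp445* had 410 (0.721-fold) and *Zfp57* 304 (0.694-fold). *Setdb1* had 273 (0.268-fold) and *Dppa3*, an oocyte factor, 34 (0.151-fold). The 5 of the 8 with at least 300 cells had separate-end ratios from 0.871 to 1.62.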

How the data were processed

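The authors processed the reads with Cell Ranger ARC 2.0.2 (mm10 reference) and deposited counts per barcode, with a call for each cell, and each unique ATAC fragment with its count of read pairs. None of the deposited counts was normalized. Duplicates had been collapsed; no source used here states whether fragment ends were shifted for the transposase. The RNA and antibody tag libraries were not used here.

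Fragments were intersected with GENCODE vM21 genes on chromosomes 1 to 19 and X, using the start of the APPRIS principal transcript, with pandas 2.3.3, pyarrow 21.0.0, scipy 1.17.1, numpy 2.4.6 and matplotlib 3.10.9 under Python 3.11.15. No fragment ended beyond its chromosome in GRCm38. Windows were 1000 bp on each side of the start, bodies took 2000 bp upstream, and a fragment counted once if it overlapped. Matched sets were the 200 nearest autosomal protein-coding genes not listed as imprinted. The expected number of cells with a pair was the number of cells with a fragment times the pooled share in the 200 promoters nearest in that number. A site that 2 genes share was counted once in sums. Overlapping pairs needed 20 bp; an end was shared when its coordinate was equal. Cells with many sites covered by over 2 fragments were marked as doublets (q under 0.01) and kept unless stated. Since all cells share a single preparation, none serves as a replicate. No p-value was computed for genes or classes, and the only q was the one that marked doublets. All 39 genes are named, with the ratio of the 2-fragment share to matched promoters where at least 100 cells were covered. Further imprinted genes are named where over 2-fold or under 0.5-fold of matched promoters, or with a separate-end ratio under 0.5. All listed genes that protect or copy imprints are named. Other genes are named as markers, as a gauge or as promoters like that of *Peg3*. Members, lists and rules were chosen with earlier results of these data known. The steps were tested on simulated data that held no doublets and no cells with copied DNA. The simulated ratio of 1 open copy is therefore no gauge for these cells. Alternatives varied the start, the window, the cells, the fragments, the matching, the overlap and the reference.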

Additional observations from a re-analysis of the deposited data

How the results depend on the processing

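Of 120 alternative values, 103 lay within the interval of the value in the report or, for counts and ranks, within 1.5 times of it. Unmatched, 13 of the 39 genes were over 2-fold of the median promoter, not 4. *Peg3* was 23rd of the members with a window of 500 bp on each side, and 7th to 9th under the other 6 alternatives; the number of members under 0.5-fold ranged from 15 to 25. Against an expectation from 2 equal independent copies, the 2-fragment ratio was 1.35 for germline DMR promoters, 1.43 for other members and 1.25 for X-linked genes; the cause was not tested. With pairs that share neither end it was 0.354 for germline DMR promoters and 0.317 for X-linked genes, and with such pairs anywhere in the window 0.284, 0.333 and, for *Peg3*, 0.167. For X-linked genes the 2-fragment ratio was 0.601 with fragments of at least 2 read pairs and 0.633 without marked doublets. The separate-end measure and its alternatives were chosen after seeing the data. Without marked doublets its ratio was 0.190 for germline DMR promoters and 0.227 for X-linked genes, which had 0.375 with an overlap of 1 bp. From the 5′ end of the gene record, other members had 1.00. With a window of 500 bp, *Peg3* had 1.20 (0.0304 to 6.68), from 1 pair, because that window leaves out the intron site. No paired analysis was possible because there is 1 library and no second group.

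There is no replicate, so no interval covers differences between mice or libraries. Single members rest on few pairs, 5 at *Peg3*, and members with under 300 cells could not be placed. Parental copies cannot be told apart in an inbred strain, so the data do not show which copy was open.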

Other observations

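Some windows outside the principal starts were also read, after the values above had been seen. The 2 kb centered 3000 bp upstream of *H19*, in the stretch where the control region of that domain is known to lie, had 424 fragments against 151 at the start of *H19*. There 2 of 347 cells had a separate-end pair, when 6.18 were expected, a ratio of 0.324 (0.0392 to 1.17). *Igf2* had 539 fragments at its start at 142659489 on chromosome 7, against 150 at the principal one, and 10 of 446 cells had a pair, a ratio of 0.981 (0.471 to 1.80).

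*Zdbf2* was not closed at every start. Its principal start had 1 fragment, but the start at 63273269 on chromosome 1 had 439, and 6 of 354 cells had a pair, a ratio of 0.917 (0.337 to 2.00). A later start of *Meg3* had 239 fragments against 122 at the principal one. Its 208 cells held 1 pair when 2.11 were expected, too few to place.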
